A study of Caenorhabditis elegans with 31 samples.

Results

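Digestion in the gut and breakdown of cell contents in the lysosome both rest on proteases, enzymes that cut other proteins. In *Caenorhabditis elegans* the acidic compartments of the intestine use cathepsin D-like aspartic proteases (the asp genes) and cysteine proteases of the cathepsin B (cpr), cathepsin L (cpl) and cathepsin Z (cpz) kinds. The astacin metalloproteases (nas) and the trypsin-like serine proteases (try) are largely secreted; astacins are known for work on the cuticle, the pharynx lining and the extracellular matrix. The genes described here are the 74 of 46904 features whose name is asp-, cpr-, cpl-, cpz-, nas- or try- followed by a digit. They comprise 18 asp, 7 cpr, 1 cpl, 2 cpz, 37 nas and 9 try genes, chosen by name alone, and asp-11 and nas-40 are annotated as pseudogenes. A count was seen for 73 of the 74, and nas-2 had none in any library. Of the 74 genes, 40 lie on chromosome V, among them 14 asp, 14 nas and 6 cpr genes, in part as direct neighbours such as asp-1, asp-15, asp-16 and asp-17.

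RNA of single nuclei from whole adult worms was counted by UMI (unique molecular identifier, a tag carried by every RNA molecule that was captured) in 31 libraries of 5 labelled batches. All worms were JK560, a strain with the allele fog-1(q253), a block in spermatogenesis that leaves a developed germline without fertilized embryos, and all had been shifted to 25°C for their last generation. The labels give both 48 and 62 hours at that temperature, so no age is stated. Worms of lines kept in water or exposed to 0.05% or 0.5% ethanol were sampled in generations F1 and F3, and untreated worms in generation P0; the labels used here do not describe the exposure itself. F1 was sampled in batches 2 and 5, with 5 libraries of water lines (2 and 3 by batch), 5 of 0.05% ethanol lines (2 and 3 by batch) and 3 of 0.5% ethanol lines, all from batch 5. F3 was sampled in batches 2 and 4 in the same numbers, with its 0.5% ethanol libraries all from batch 4. P0 worms gave 1 library of sorted nuclei and 1 of unsorted nuclei in batch 1, and 3 of unsorted nuclei in batch 3. Nothing states that the libraries of a group came from separate cultures, so p-values measure only the spread between these libraries.

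The libraries held 85180 nuclei, from 1116 to 4850 each, and from 1218248 to 25500166 UMIs each. The 3 libraries numbered 2 in batch 5 were shallow, with 1218248 to 1439256 UMIs, and ribosomal RNA took 10.9% to 14.7% of their UMIs, against 0.996% to 4.69% in the other 6 libraries of batch 5. In the third unsorted P0 library of batch 3, 40.7% of nuclei fell in the class named from uterine lumen proteins. Barcodes shared between libraries of the same batch touched 3824 nuclei (4.49%), which held between 1.62% and 45.5% of the UMIs of a library. With each such nucleus kept in 1 library only, 0 protease genes were called in the ethanol comparisons below, and 33 of 53 and 14 of 53 in the batch comparisons of whole libraries. With all nuclei kept, 48.6% of all genes were called in the first of these batch comparisons and 20% in the second. Nuclei were clustered without the 74 protease genes into 27 clusters, of which 14 could be named in 8 classes from marker genes, and the other 13 keep their number. The intestine-like class held 5137 nuclei, from 73 to 306 per library.

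The protease genes together gave 2701553 UMIs, 1.14% of all UMIs, and a few cathepsin genes made up most of this. Their summed level was 11010 ± 1718 CPM (counts per 1000000 UMIs of the library; SD, n = 31 libraries), between 7203 CPM in water F1 library 2 of batch 5, one of the shallow libraries, and 14444 CPM in the sorted P0 library. The asp genes gave 46.9% of the protease UMIs and summed to 5143 ± 1056 CPM. The cpr genes gave 27.3% and summed to 3078 ± 413 CPM, cpl-1 gave 12.4% and both cpz genes 9.88%. The 37 nas genes gave only 2.77%, with a sum of 292 ± 82.3 CPM, and the 9 try genes 0.663%, with a sum of 81.4 ± 19.9 CPM. The mean level was at least 100 CPM for 15 genes, 5 to 100 CPM for 15, 1 to 5 CPM for 20 and under 1 CPM for 23 genes that had a count. Of the nas genes with a count, 14 averaged under 1 CPM, and 37 of the 74 genes were counted in every library.

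Genes were set in order by CPM per kb of their longest annotated transcript. A UMI marks a captured molecule and not its length, so this order depends on transcript length as well as on level. By mean CPM alone the order began with cpr-6 (1454), cpl-1 (1312), asp-3 (1050), asp-1 (1041) and cpz-1 (963). The cathepsin B gene cpr-6 came first with 1154 CPM per kb and the cathepsin L gene cpl-1, known for its part in yolk and eggshell processing in the worm, next with 1103 CPM per kb. The cathepsin Z gene cpz-1, known from molting, followed with 970 CPM per kb and the gut aspartic protease asp-1 with 874 CPM per kb. asp-3 had 718, the gut cysteine protease cpr-1 had 693, asp-6 had 624, asp-4 had 484, asp-2 had 434 and cpr-4 had 428 CPM per kb. asp-3 and asp-4 are the aspartic proteases known from necrotic death of worm neurons. The steps from cpr-6, cpl-1 and asp-1 to the next gene were smaller than the variation of each between libraries. That variation was 17.2% of the mean (the SD over the mean, in percent) for cpr-6, 26% for cpl-1 and 34.3% for asp-1. All genes were measured in the same libraries, and whether neighbours keep their order within each library was not tested. In the secreted families the highest genes were nas-20 with 73.8 CPM per kb and try-1 with 51.8 CPM per kb.

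Across libraries cpr-6 ran from 920 through a median of 1481 to 2085 CPM, cpl-1 from 718 through 1390 to 1891 CPM, and asp-1 from 402 through 1110 to 1638 CPM. The cathepsin Z gene cpz-2 varied least of the 15 genes at or above 100 CPM, from 110 through 141 to 184 CPM, an SD of 13.7% of the mean. The cathepsin B-like gene cpr-3 varied by 73.2% of its mean and ran from 7.03 through 20.4 to 94.9 CPM. Its 6 highest values were those of the 5 P0 libraries and of water F1 library 1 of batch 2. The aspartic protease gene asp-17 varied by 78.3% of its mean and ran from 1.56 through 6.46 to 32.6 CPM.

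**Figure D1:**
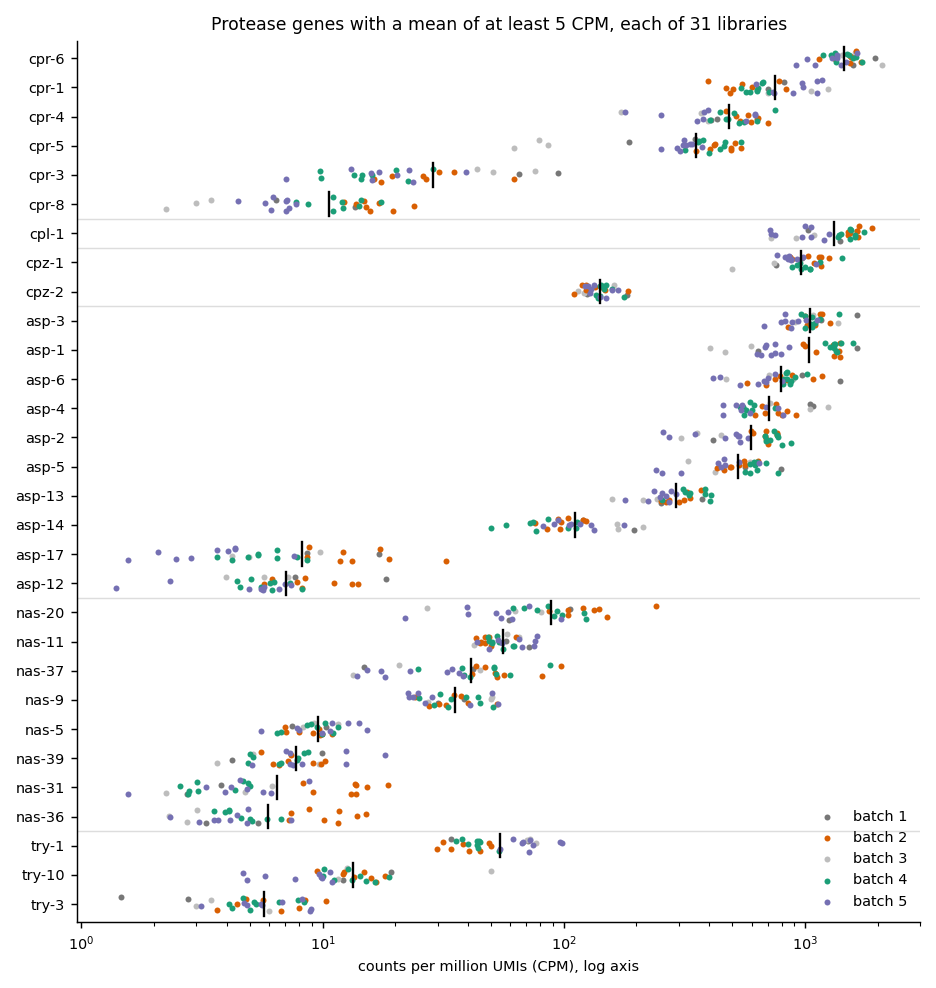
Level of each of the 30 protease genes that averaged 5 CPM or more, in each of the 31 libraries (x axis: CPM, log axis; rows: genes by family; points: libraries coloured by labelled batch; black lines: mean over libraries). The 15 genes that average at least 100 CPM are asp, cpr, cpl and cpz genes, and the batch 2 points of asp-17, nas-31 and nas-36 lie to the right of most other points.

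Most of the cathepsin genes had their highest class mean in gut nuclei. These levels are given as a description, with no test, over libraries with at least 20 nuclei of a class. In intestine-like nuclei the protease genes summed to 30952 ± 2514 CPM (n = 31, from 25050 to 36274 CPM), against 7119 ± 2120 CPM in germline-like, 9638 ± 1619 CPM in body wall muscle-like and 9932 ± 1354 CPM in neuron-like nuclei (n = 31, 31 and 30). The unnamed cluster 19, of 1625 nuclei led by C52D10.3, R10E8.7 and Y32B12C.5 and with intestine as its best marker list, had 15418 ± 3424 CPM (n = 28). The unnamed cluster 17 had the lowest sum, 4814 ± 1899 CPM (n = 28). The highest mean over the classes was at least 5 CPM for 51 of the 74 genes, and for 21 of these 51 it was in intestine-like nuclei. They were 11 asp genes, 6 of the 7 cpr genes, cpl-1, both cpz genes and try-9.

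The 15 genes of at least 100 CPM all had their highest class mean in intestine-like nuclei. The cathepsin B gene cpr-6 reached 4712 ± 950 CPM there, against 1920 ± 489 CPM in cluster 19, the next class, and was higher in 28 of 28 libraries with both. cpr-1 had 2750 ± 1052 CPM in intestine-like nuclei and 907 CPM in the next class (28 of 28 libraries), the widest step, at 3.03 times, among the 15. asp-3 had 3026 ± 509 CPM in intestine-like nuclei and 1481 CPM in the next class (28 of 28). asp-1 had 3175 ± 765 CPM in intestine-like nuclei and 1448 ± 370 CPM in cluster 4 (20 of 20). The step was smaller for cpl-1, with 3218 ± 805 CPM in intestine-like nuclei and 2447 ± 705 CPM in cluster 19 (26 of 28), and for cpz-2, with 409 ± 66.8 CPM in intestine-like nuclei and 326 ± 73.9 CPM in cluster 19 (23 of 28). asp-6, cpz-1, asp-2, asp-4, asp-5, cpr-4, cpr-5, asp-13 and asp-14 lay between 301 and 2458 CPM in intestine-like nuclei, and each was higher there than in its next class in at least 26 libraries, or in 20 of 20 for asp-5. cpr-3, a lower gene, was higher there in 27 of 28. Per kb of transcript, cpr-6 was the highest protease gene in 10 of the 20 classes with levels, with 3740 CPM per kb in intestine-like nuclei, and cpl-1 in 7, with 2056 CPM per kb in cluster 19. By mean CPM alone, cpr-6 was also the highest in clusters 12 and 21, where cpz-1 and asp-1 led per kb. In body wall muscle-like nuclei cpz-1 had 1315 and cpl-1 1097 CPM per kb, while both averaged 1306 CPM before division by length.

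The astacins were spread over other classes, with only low levels in the gut class. Summed, the nas genes had 808 ± 313 CPM in uterine lumen-like nuclei and 111 ± 37 CPM in intestine-like nuclei. nas-20 was highest in uterine lumen-like nuclei with 485 ± 276 CPM, against 131 ± 171 CPM in cluster 18 (higher in 26 of 28 libraries). nas-37, which acts in the shedding of the old cuticle at molts, had 165 ± 102 CPM in uterine lumen-like nuclei and 154 ± 138 CPM in cluster 18, and was higher in 16 of 28 libraries, so these means do not separate. nas-9 had 204 ± 114 CPM and nas-11 175 ± 101 CPM in cluster 12, a cluster led by linc-72, Y37A1A.2 and D2023.1. nas-9 exceeded its next class in 23 of 27 libraries and nas-11 in 21 of 28. nas-39, the worm relative of the tolloid and BMP1 proteases, had 65.1 ± 47.4 CPM in gonadal sheath-like nuclei and 31.8 CPM in cluster 23, and was higher in 10 of 16 libraries.

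Of the astacins, 9 had their highest mean in the same unnamed cluster, some by little. nas-1, nas-4, nas-6, nas-7, nas-8, nas-15, nas-30, nas-36 and nas-38 each had their highest class mean in cluster 4, of 4894 nuclei, led by the cuticle collagen genes dpy-4, col-77, col-73, dpy-13 and col-138. nas-6 and nas-7 are known from the grinder of the pharynx, nas-36 from molting and nas-38 from the sleep-like state at molts. nas-38 had 29.8 ± 21.1 CPM in cluster 4 and 10.5 CPM in the next class, and was higher in 17 of 20 libraries. nas-15 had 14.4 ± 16.5 CPM in cluster 4 and 1.4 CPM in the next class (15 of 20 libraries). nas-30, at 18.3 ± 12.8 CPM in cluster 4, exceeded its next class in 14 of 19 libraries, and nas-1, at 12.3 ± 17.3 CPM, in 10 of 12. For others the means lay closer together than the SDs. nas-8 had 14.5 ± 13.9 CPM in cluster 4 and 12.4 ± 17.3 CPM in gonadal sheath-like nuclei, and was higher in 11 of 20 libraries. nas-36 had 22.7 ± 15.6 CPM in cluster 4 and 16.5 ± 13.2 CPM in cluster 17 (higher in 11 of 19), and nas-7 had 24.4 ± 17.3 CPM in cluster 4 and 14.8 ± 16.8 CPM in coelomocyte-like nuclei (higher in 8 of 14). nas-6 averaged 6.45 CPM in cluster 4, above its next class in 8 of 12 libraries, and nas-4 averaged 6.23 CPM, above its next class in 12 of 20. Of the nuclei of cluster 4, 25% came from water F3 library 1 of batch 2.

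Among the serine proteases, try-1 was highest in cluster 17 with 187 ± 111 CPM, against 89.6 ± 30.2 CPM in germline-like nuclei (higher in 26 of 28 libraries). try-3 was highest in cluster 19 with 82.9 ± 38 CPM, against 8.1 ± 5.62 CPM in intestine-like nuclei (28 of 28). try-8 averaged 11.1 ± 29 CPM in coelomocyte-like nuclei and exceeded its next class in 4 of 17 libraries. try-5, known in the worm as the male seminal protease that activates sperm, had its highest class mean in cluster 23, at 8.61 ± 10.8 CPM, and exceeded the next class in 13 of 20 libraries. The exons of several of these genes overlap those of a neighbour, among them nas-11 with smf-2, nas-7 with C07D10.1, nas-39 with F38E9.1 and asp-4 with R12H7.4. The use of strand in counting is not given, so reads of such pairs could not be told apart.

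**Figure D2:**
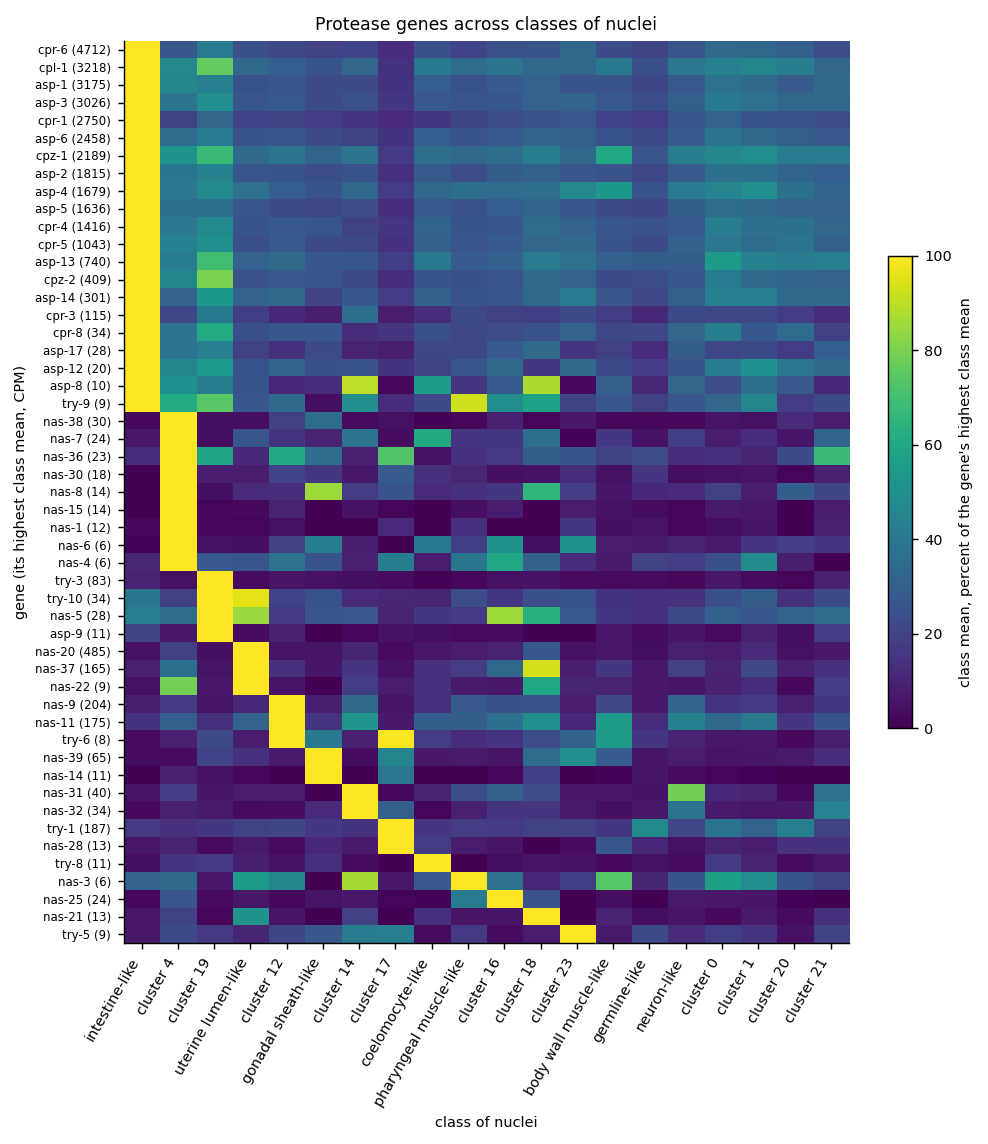
Class means of the 51 protease genes whose highest class mean was at least 5 CPM, in percent of the gene's highest class mean (colour; rows: genes with their highest class mean in CPM; columns: 20 named classes and numbered clusters). The plotted asp, cpr, cpl and cpz genes peak in the intestine-like column except asp-9, which peaks in cluster 19, and 9 nas genes peak in the column of cluster 4.

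Cathepsin RNA was also counted in every other class, and its ratio to the gut level was much alike from gene to gene in some classes and not in others. For each of the 15 genes of at least 100 CPM, the level in a class was divided by the level in intestine-like nuclei of the same library. In germline-like nuclei the 15 mean ratios lay between 0.192 for cpr-1 and 0.296 for asp-13, with a median of 0.237 (n = 31). In body wall muscle-like nuclei the median was 0.265, but cpz-1 had a ratio of 0.625 ± 0.209 and asp-4 of 0.533 ± 0.111, each above the median gene of its library in 31 of 31 libraries. cpl-1 followed with 0.435, above the median gene in 30 of 31 libraries, while cpr-6 had 0.23. In neuron-like nuclei, with a median of 0.295, the 3 highest ratios were those of cpz-1 at 0.452 ± 0.16, asp-4 at 0.416 ± 0.0862 and cpl-1 at 0.415 ± 0.144 (n = 30). In cluster 19 the median was 0.48, and cpz-2 had 0.814 and cpl-1 0.739, above the median gene in 27 and 28 of 28 libraries. The part of free RNA in these levels was not tested.

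**Figure D3:**
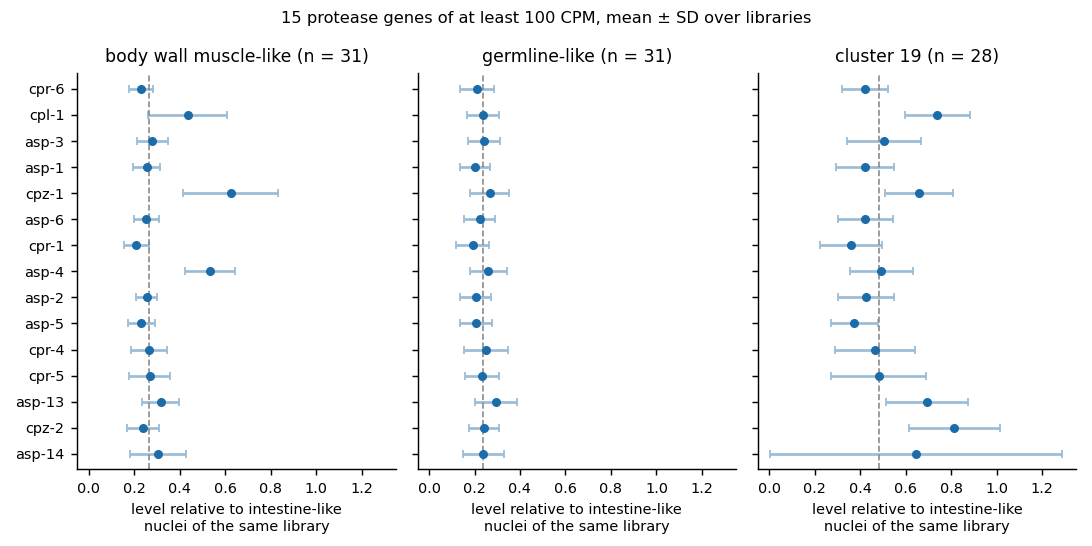
Level of the 15 protease genes of at least 100 CPM in body wall muscle-like nuclei, germline-like nuclei and cluster 19, divided by the level in intestine-like nuclei of the same library (points and bars: mean ± SD over libraries; dashed lines: median of the 15 means). The germline-like ratios lie between 0.192 and 0.296, while cpz-1 and asp-4 stand out to the right in body wall muscle-like nuclei and cpz-2 and cpl-1 in cluster 19.

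Ethanol lines were then compared with water lines, the question the study was built for. No protease gene passed the test between ethanol and water lines, and the log2 changes of the 15 most abundant ones lay between -0.27 and 0.24. Library sums of the UMI counts went into edgeR's quasi-likelihood test over 14505 genes, in which an adjusted p below 0.05 is a call, and 55 of the 74 protease genes passed the filter on low counts. In whole libraries a lower level of a gene can mean fewer nuclei of a type or less RNA per nucleus, which cannot be told apart. At 0.05% ethanol 0 of 55 protease genes were called in F1 and 0 in F3, and at 0.5% ethanol 0 in F1 and 0 in F3. Of all 14505 genes, 0% were called in each of these comparisons. DESeq2 also called 0 protease genes in all of them. At an unadjusted p below 0.05 there were 1 of 55 protease genes at 0.05% in F1 (0.793% of all genes), 3 at 0.05% in F3 (0.938%), 0 at 0.5% in F1 (1.8%) and 0 at 0.5% in F3 (4.42%).

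In F1 of batch 5 cpr-6 had 1640, 920 and 1354 CPM in water libraries, 1293, 1099 and 1415 CPM at 0.05% ethanol, and 1481, 1017 and 1361 CPM at 0.5% ethanol. In F3 of batch 4 it had 1184, 1342 and 1516 CPM in water libraries, 1726, 1280 and 1579 CPM at 0.05% ethanol, and 1335, 1629 and 1498 CPM at 0.5% ethanol. The 3 groups overlap in both generations. The log2 change of cpr-6 over water was -0.12 ± 0.15 (SE; 95% interval -0.43 to 0.20) at 0.05% and -0.11 ± 0.18 (-0.49 to 0.27) at 0.5% in F1, and 0.13 ± 0.15 (-0.18 to 0.44) at 0.05% and 0.07 ± 0.18 (-0.32 to 0.45) at 0.5% in F3.

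Over the 15 genes of at least 100 CPM, the log2 change at 0.05% ethanol in F1 lay between -0.13 for asp-14 and 0.09 for asp-13, and the 95% intervals reached from -0.55 to 0.60. At 0.5% in F1 it lay between -0.27 for asp-14 and 0.12 for asp-13, with intervals from -0.78 to 0.65. At 0.05% in F3 it lay between -0.06 for cpr-1 and 0.24 for cpz-1, with intervals from -0.44 to 0.75. At 0.5% in F3 it lay between -0.14 for asp-14 and 0.23 for cpr-5, with intervals from -0.64 to 0.82. Over all 55 tested protease genes the median log2 change was -0.04 at 0.05% in F1 (-0.01 over all genes), -0.06 at 0.5% in F1 (-0.02 over all genes), 0.04 at 0.05% in F3 (0.01 over all genes) and -0.14 at 0.5% in F3 (-0.004 over all genes). The 2 doses of a generation share their water libraries.

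**Figure D4:**
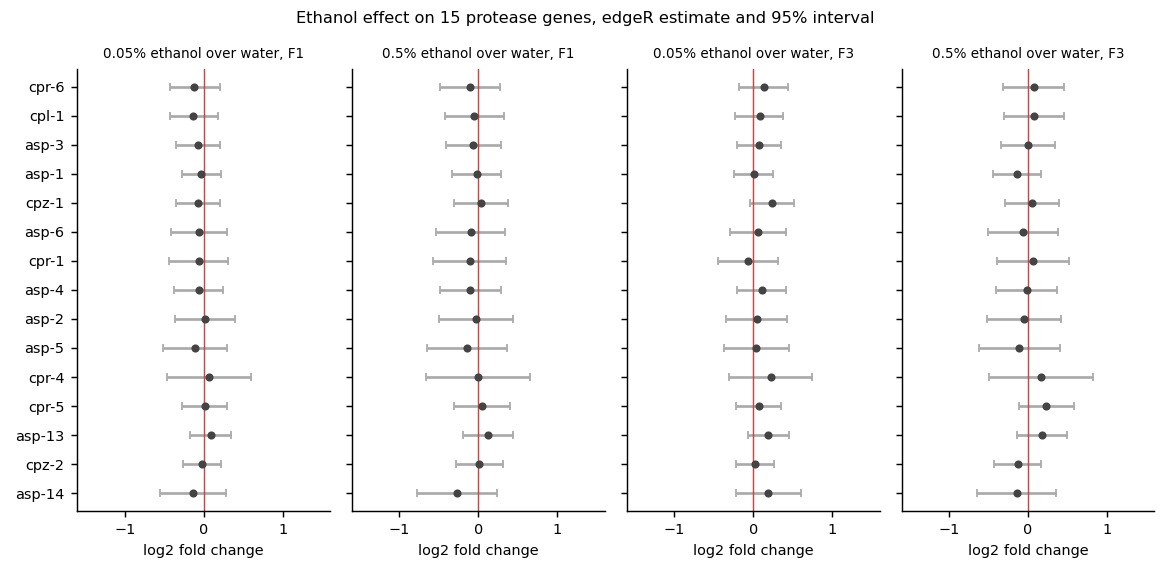
Log2 fold change of the 15 protease genes of at least 100 CPM in ethanol over water lines, for each dose and generation (points: edgeR estimate; bars: 95% interval; red line: no change). Every interval includes 0.

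The genes with the smallest p were low ones. asp-17 in F1 had 8.65 and 17.3 CPM at 0.05% ethanol in batch 2 and 4.33, 1.56 and 2.86 CPM in batch 5, against 32.6 and 13.2 CPM in water in batch 2 and 7.61, 2.08 and 3.66 CPM in batch 5. These groups overlap within each batch, and the log2 change was -0.74 ± 0.33 (edgeR, adjusted p = 1). nas-3 in F3 had 0.938 and 0.983 CPM at 0.05% ethanol in batch 2 and 3.04, 2.66 and 0.913 CPM in batch 4, against 0.941 and 0.515 CPM in water in batch 2 and 0.132, 0.353 and 0.588 CPM in batch 4. All 3 ethanol libraries lay above the water libraries in batch 4 and not all in batch 2, and the log2 change was 1.59 ± 0.60 (edgeR, adjusted p = 1). nas-37 in F3 had 38, 40.7 and 24.9 CPM at 0.5% ethanol, against 51.4, 52.4 and 87.3 CPM in water of batch 4. These values do not overlap, but the log2 change of -0.73 ± 0.36 did not pass the threshold (edgeR, adjusted p = 0.96). The smallest p at 0.5% in F1 was that of nas-24, with a log2 change of -2.59 ± 1.41 (edgeR, adjusted p = 1).

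Between 0.5% and 0.05% ethanol 0 of 55 protease genes were called in F1 and 0 in F3 (0% of all genes in both), and DESeq2 called 0 in both. Before adjustment, p was below 0.05 for 1 gene, nas-24, in F1 (1.26% of all genes) and for 0 in F3 (4.27%). The smallest p in F3 was that of nas-37, with -0.76 ± 0.37 (edgeR, adjusted p = 0.96). The F3 effect minus the F1 effect was called for 0 of 55 protease genes at 0.05% and for 0 at 0.5% ethanol (0% of all genes and 0 by DESeq2 in both). Unadjusted, p was below 0.05 for 0 protease genes at either dose, against 0.882% of all genes at 0.05% and 1% at 0.5%. The smallest p were those of nas-6 at 0.05%, with a difference of -1.40 ± 0.70 (edgeR, adjusted p = 1), and nas-37 at 0.5%, with -0.86 ± 0.53 (edgeR, adjusted p = 1). For 0.5% ethanol the generation and the batch cannot be told apart.

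Within batch 2, which holds both generations, 0 of 55 protease genes were called between F3 and F1, against 0.655% of all genes. At an unadjusted p below 0.05 there were 4 protease genes, against 10.2% of all genes, and DESeq2 called 1 (258 of all 14505 genes). A fit with same-numbered libraries of a line as a block called 2 of 56 (555 of all 14196 genes), although the water pairs did not correlate. The gene with the smallest p was nas-3, with a log2 change of -2.44 ± 0.67 (edgeR, adjusted p = 0.106).

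The same comparisons were made in intestine-like nuclei alone, where 25 protease genes passed the filter among 6670 genes. With 0.05% or 0.5% ethanol, in F1 or F3, 0 of 25 protease genes were called (edgeR; 0% of all genes in each), and DESeq2 called 0. Unadjusted, p was below 0.05 for 1 protease gene at 0.05% (3.07% of all genes) and for 2 at 0.5% in F1 (3.49%). In F3 it was below 0.05 for 0 at either dose (3.4% of all genes at 0.05% and 3.3% at 0.5%). asp-2 had 2096 and 2031 CPM at 0.05% ethanol in F1 of batch 2 and 1879, 1472 and 1871 CPM in batch 5, against 1907 and 1584 CPM in water of batch 2 and 1464, 904 and 1598 CPM in batch 5. Its log2 change was 0.34 ± 0.15 (edgeR, adjusted p = 1). The groups overlap in batch 5, while asp-2 was higher in the ethanol library of each of the 5 same-numbered pairs. nas-20 had 13.5, 15.8 and 14 CPM at 0.5% ethanol in F1, against 95.2, 49.5 and 36 CPM in water of batch 5. These values do not overlap, and the log2 change of -1.76 ± 0.64 did not pass the threshold (edgeR, adjusted p = 1). The 15.8 and 49.5 CPM are those of the shallow libraries numbered 2. In this ethanol library nas-9, try-10 and try-1 also had 15.8 CPM each, so the value rests on very few UMIs. cpz-1 at 0.05% and cpz-2 at 0.5% had the smallest p in F3, with log2 changes of 0.37 ± 0.18 (edgeR, adjusted p = 1) and -0.28 ± 0.19 (edgeR, adjusted p = 1). Of the 15 genes of at least 100 CPM, the log2 change lay above 0 for 15 at 0.05% and 14 at 0.5% in F1, against 49.3% and 47.6% of all genes, and for 12 at 0.05% and 7 at 0.5% in F3, against 50.6% and 50% of all genes. The 15 genes come from the same libraries, and both doses of a generation share water libraries. These counts are thus not of independent observations, and they were not tested. The median log2 change at 0.05% in F1 was 0.09 over the 25 tested protease genes and -0.004 over all genes. Between F3 and F1 of batch 2, 0 of 25 were called in intestine-like nuclei by edgeR (0.06% of all genes) and 0 by DESeq2. Unadjusted, p was below 0.05 for 0 protease genes (9.46% of all genes). The smallest p was that of nas-20 (log2 change -1.12 ± 0.63, edgeR, adjusted p = 0.59).

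The labelled batch separated the protease genes where ethanol did not. In F1, 34 of 55 protease genes (61.8%) were called between batch 5 and batch 2, against 48.6% of all genes, and 33 of the 34 were lower in batch 5, against 24.4% of all genes called lower. In F3, 16 of 55 (29.1%) were called between batch 4 and batch 2, against 20% of all genes, and all 16 were lower in batch 4, against 11.3% of all genes. The median log2 change was -0.71 over the protease genes and -0.05 over all genes in F1, and -0.20 and -0.01 in F3. Without the 3 shallow libraries of batch 5, 34 of 55 were called in F1, and 6420 of all 14535 genes. In a fit of water libraries alone, 1 of 33 tested was called in F1 (268 of all 11403 genes) and 8 of 39 in F3 (1345 of all 12332). Among genes of at least 20 CPM, 16 of 21 were called in F1 (4177 of all 6836 genes). In F3 it was 1 of 21 (1354 of all 6836). A gene high in batch 2 alone could pass the main filter on low counts, so the counts called lower are not independent of it. These comparisons rest on 6 water and 0.05% ethanol libraries of batch 5 or 4 and 4 of batch 2, and the comparisons share no library.

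Among the called genes that averaged at least 5 CPM in either batch, nas-15, an astacin gene of cluster 4, had the largest change in both generations. It passed the filter on low counts, and this bound of 5 CPM, through batch 2 alone. Its highest value in batches 4 and 5 was 1.26 CPM, so its lower call is not independent of this choice. nas-15 had 0, 0.321 and 0.781 CPM (lowest, median and highest) in F1 of batch 5, against 1.59, 4.36 and 15.8 CPM in batch 2. The batch 5 values rest on 7 UMIs in all, and the counts of 0 in 0.05% ethanol libraries 1 and 3 allow up to 0.448 and 0.537 CPM (3 counts). In F3 nas-15 had 0.177, 0.428 and 1.19 CPM in batch 4, against 3.61, 6.87 and 12 CPM in batch 2. The batches did not overlap in either generation, and the log2 changes were -4.77 ± 0.87 in F1 (edgeR, adjusted p = 0.000152) and -3.75 ± 0.69 in F3 (edgeR, adjusted p = 0.000547). nas-38 had 0, 0.459 and 3.13 CPM in F1 of batch 5, against 3.26, 5.95 and 11.8 CPM in batch 2, and 0.365, 1.86 and 4.11 CPM in F3 of batch 4, against 8.13, 9.49 and 16.1 CPM in batch 2. Here too the batches did not overlap, although the 0 is that of the shallow water library 2, where 0 counts allow up to 2.08 CPM, with log2 changes of -3.46 ± 0.60 in F1 (edgeR, adjusted p = 9.32e-05) and -2.44 ± 0.48 in F3 (edgeR, adjusted p = 0.000998). nas-22, of the uterine lumen-like class, had 0, 0.782 and 1.65 CPM in F1 of batch 5, against 3.39, 4.38 and 4.66 CPM in batch 2, and fell by 2.91 on the log2 scale in F3 of batch 4 (edgeR, adjusted p = 3.84e-05). nas-4, nas-7, nas-25, nas-31 and nas-37 fell by 1.42 to 2.13 on the log2 scale in batch 5 (edgeR, adjusted p between 0.000144 and 0.000874). nas-1, nas-7, nas-8, nas-30, nas-31 and nas-36 fell by 1.32 to 3.36 on the log2 scale in batch 4 (edgeR, adjusted p between 0.000209 and 0.00596). Of the genes under 5 CPM in both batches, nas-23, with a mean of 0.599 CPM over all libraries, changed by -3.46 ± 0.74 in batch 5 and -4.22 ± 0.69 in batch 4 (edgeR, adjusted p = 0.000644 and 0.000179). nas-23 also passed the filter on low counts through batch 2 alone, with at most 0.821 CPM in batches 4 and 5. Of the genes lower in batch 5, 14 were also lower in batch 4, which is 42.4% of the 33 and 87.5% of the 16, and 12 of the 14 were nas genes, among them all 9 of cluster 4. The 9 were picked by a class mean over the 20 libraries with enough nuclei of cluster 4. Among water and 0.05% ethanol libraries these were 4 of 4 of batch 2 in each generation and 6 of 6 of batch 4. In F1 of batch 5 it was 1 of 6, so the choice of these genes is not independent of the batch. Over all genes, 1254 were lower in both, 35.4% of those lower in batch 5 and 76.4% of those lower in batch 4.

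The share of nuclei in cluster 4 moved with the batch. It was at most 1.27% in F1 of batch 5 and ran from 10.3% to 21% in batch 2, and it ran from 1.02% to 5.54% in F3 of batch 4 and from 18.8% to 26.4% in batch 2. The 9 nas genes of cluster 4 summed to 14.1 ± 2.74 CPM in F1 of batch 5 (n = 6), against 52.1 ± 24 CPM in batch 2 (n = 4), and to 17.2 ± 5.07 CPM in F3 of batch 4, against 66.6 ± 15.1 CPM in batch 2. With the nuclei of cluster 4 left out, the mean sums were 13.4 CPM in F1 of batch 5, against 26.8 CPM in batch 2, and 13 CPM in F3 of batch 4, against 29.8 CPM in batch 2. nas-15 then still differed by -3.88 in F1 and -2.73 in F3, nas-38 by -3.12 and -1.93, while nas-7 and nas-36 were no longer called in F3. The count of called protease genes without cluster 4 was 26 of 50 in F1 (6187 of all 14229 genes) and 9 of 50 in F3 (1977 of all 14229). This setting was chosen after seeing the data. All 10 epidermis markers were counted, none at 0, and summed to between 821 and 1975 CPM in F1 of batch 5, against 3337 to 4251 CPM in batch 2. In F3 they summed to between 3771 and 5385 CPM in batch 4, against 4437 to 5680 CPM in batch 2. Of the 9 markers of cuticle-forming cells of the pharynx, the best marker list of cluster 4, 8 were counted and abu-7 was at 0. They summed to between 7.92 and 26.5 CPM in F1 of batch 5, against 76.4 to 417 CPM in batch 2, and to between 5.11 and 115 CPM in F3 of batch 4, against 143 to 442 CPM in batch 2. The part of these cell types in the differences was not tested.

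Cathepsin genes of the gut moved less and mainly in F1. asp-17 was lower in both generations, with 1.56, 3.26 and 7.61 CPM in F1 of batch 5, against 8.65, 15.3 and 32.6 CPM in batch 2 (log2 change -2.24 ± 0.32; edgeR, adjusted p = 1.18e-05), and a log2 change of -1.15 ± 0.30 in F3 of batch 4 (edgeR, adjusted p = 0.00936). cpl-1 had 718, 988 and 1261 CPM in F1 of batch 5, against 1502, 1572 and 1641 CPM in batch 2. Its batches did not overlap, and the log2 change was -0.85 ± 0.15 (edgeR, adjusted p = 9.69e-05). asp-1 had 631, 683 and 858 CPM in batch 5, against 1002, 1212 and 1390 CPM in batch 2, again without overlap (log2 change -0.88 ± 0.12; edgeR, adjusted p = 8.62e-06). Of the 15 genes of at least 100 CPM, 11 were lower in F1 of batch 5, against 24.4% of all genes. Among all genes of at least 20 CPM, 4177 of 6836 were called there in either direction. In F3 of batch 4, 0 of the 15 were called, against 20% of all genes. Their log2 changes there lay between -0.33 for cpr-5 and 0.41 for asp-5. asp-8 and asp-12 changed by -1.92 ± 0.38 and -1.36 ± 0.24 in batch 5 (edgeR, adjusted p = 0.00033 and 0.000108), and cpr-8 by -0.71 ± 0.19 in batch 4 (edgeR, adjusted p = 0.0101). The sole gene higher in batch 5 was try-1, with 54.2, 69.7 and 98.7 CPM in batch 5, against 31.5, 42.7 and 49.8 CPM in batch 2 (log2 change 0.69 ± 0.17; edgeR, adjusted p = 0.00195). All 10 intestine markers were counted, none at 0, and summed to between 29346 and 41077 CPM in F1 of batch 5, against 23511 to 35084 CPM in batch 2. All 8 body wall muscle markers were counted and summed to between 5007 and 12879 CPM in F1 of batch 5, against 14753 to 21018 CPM in batch 2. The part of either cell type in these changes was not tested.

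**Figure D5:**
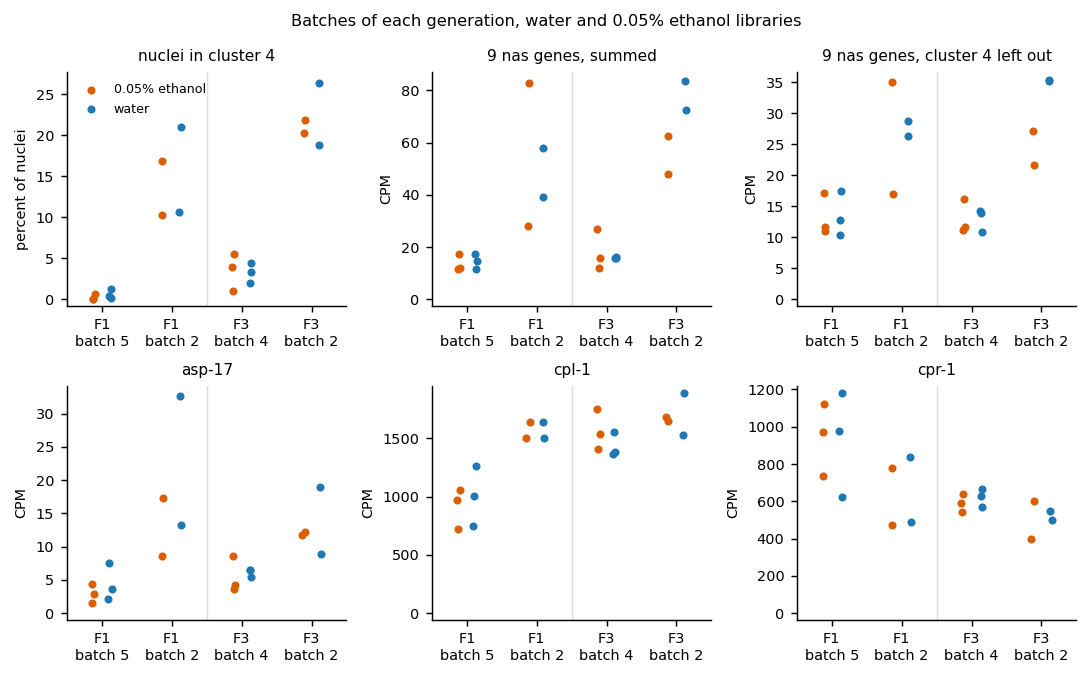
Water and 0.05% ethanol libraries of each generation by labelled batch: percent of nuclei in cluster 4, summed CPM of the 9 nas genes with their highest class mean in cluster 4, the same with cluster 4 left out, and CPM of asp-17, cpl-1 and cpr-1 (points: libraries). Cluster 4 reaches at most 5.54% of nuclei in batches 5 and 4 and at least 10.3% in batch 2.

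In intestine-like nuclei 3 of 25 protease genes (12%) were called between batch 5 and batch 2 in F1, against 5.76% of all genes, and 1 of 25 (4%) between batch 4 and batch 2 in F3, against 4.71%. cpl-1 had 2781, 2139 and 2715 CPM at 0.05% ethanol and 2643, 1944 and 2599 CPM in water in batch 5, against 3743 and 3728 CPM at 0.05% ethanol and 3468 and 4478 CPM in water in batch 2. No batch 5 value reached those of batch 2 (log2 change -0.68 ± 0.16; edgeR, adjusted p = 0.0071). cpr-1 had 3176, 3851 and 4149 CPM at 0.05% ethanol and 3609, 2675 and 3282 CPM in water in batch 5, against 2195 and 1682 CPM at 0.05% ethanol and 2371 and 2062 CPM in water in batch 2. It was higher in batch 5 without overlap, in the opposite direction to cpl-1 (log2 change 0.69 ± 0.20; edgeR, adjusted p = 0.0326), and in whole libraries its change of 0.41 was not called. asp-17 changed by -1.51 ± 0.44 in batch 5 (edgeR, adjusted p = 0.033) and by -1.67 ± 0.40 in batch 4 (edgeR, adjusted p = 0.00732). The 2 clusters of the intestine-like class were not equally filled, and cluster 8 held 80.2% of its nuclei in F1 of batch 5, against 61.2% in batch 2, and 74.9% in F3 of batch 4, against 60.9% in batch 2. Its part in these differences was not tested. With clusters at resolution 0.5, 9 of 27 were called in F1 (1051 of all 8685 genes). That intestine-like class was a wider one, with 17990 nuclei in its larger cluster, against 5137 nuclei in the class used here. With no filter on low counts 5 of 62 were called (533 of all 16800 genes). With shared barcodes kept in 1 library only, a setting added after seeing the data, it was 1 of 26 (340 of all 6619). Leaving out 1 library changed the count to between 0 and 3 in F1. Without water F1 library 2 of batch 2, 0 were called (248 of all 6737 genes). Without 0.05% ethanol F1 library 2 or library 3 of batch 5, 1 was called (311 of all 6698 and 332 of all 6743 genes). In F3 it changed the count to between 0 and 2. The count was 0 without water F3 library 2 of batch 2 (235 of all 6543 genes) and 2 without water F3 library 1 of batch 4 (311 of all 6531).

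Genes that act on or beside these proteases were read from 5 other lists, and 0 of their genes were called by edgeR in the ethanol comparisons. Their counts between batches are read against the shares of all genes, of which 48.6% were called and 24.4% were lower in batch 5, and 20% were called and 11.3% were lower in batch 4. Of 12 tested protease inhibitors, 8 were lower in F1 of batch 5, among them mlt-11, a Kunitz-type inhibitor gene known from molting (-3.85 ± 0.63; edgeR, adjusted p = 6.79e-05), bli-5 (-0.92), swm-1, the inhibitor of try-5 in the worm (-0.89), srp-3 (-0.89) and srp-6 (-0.78). In F3 of batch 4, 4 were lower, namely mlt-11 (-2.22), srp-3 (-1.01), bli-5 (-0.90) and the cystatin gene cpi-1 (-0.62). Of 48 other lysosome genes, 25 were lower and 4 higher in batch 5, led by aman-1, a lysosomal mannosidase gene (-1.73 ± 0.50). In batch 4, 7 were lower and 2 higher, again led by aman-1 (-2.79 ± 0.49, edgeR, adjusted p = 0.000519). aman-1 is also among the leading genes of the coelomocyte-like nuclei and ran from 19.2 to 1087 CPM over libraries. The part of that cell type in its change was not tested. Of 20 other extracellular metalloproteases, 6 were lower and 3 higher in batch 5, with zmp-6 at -3.50 and unc-71 at 1.15, and 3 were lower and 3 higher in batch 4, with zmp-6 at -2.64. Of 8 calpains, 1 was lower and 2 higher in batch 5 and 0 were called in batch 4. Of 8 transcription regulators of gut and lysosome genes, elt-2 (-0.82) and elt-4 (-0.64) were lower and skn-1 (0.72) and daf-16 (0.71) higher in batch 5, and 0 were called in batch 4.

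The untreated P0 libraries share no batch with the others, so P0 and batch cannot be told apart and no test was made. cpr-5 had 349 CPM in the sorted and 187 CPM in the unsorted P0 library of batch 1, and 86.3, 78.9 and 61.9 CPM in those of batch 3, against 253 to 542 CPM in the 26 water and ethanol libraries. All 4 unsorted P0 libraries lay below every one of the 26. cpr-6 did not stand apart in this way, with 1957 CPM in the sorted and 1575, 1612, 2085 and 1423 CPM in the unsorted P0 libraries. In intestine-like nuclei cpr-1 had 2446 CPM in the sorted and 2052 CPM in the unsorted P0 library of batch 1 and 4028, 5820 and 4512 CPM in those of batch 3, against 1616 to 4149 CPM in the 26 water and ethanol libraries, so the P0 values overlap these.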

How the data were processed

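The deposited matrices hold raw UMI counts of each gene in each nucleus, which the authors made with Cell Ranger on the genome build ce10, per the submitters' processing notes; the file headers name software version 3.0.2, and the use of strand is not given in the sources used here. The labels gave the groups, batches and replicate numbers. Depth ran from 1218248 to 25500166 UMIs per library, and 0 columns of other samples were found. Chromosomes, neighbours and lengths were read, by gene identifier, from Ensembl release 115 (WBcel235).

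Likely doublets (2168 nuclei) were removed before clustering (2000 variable genes, 30 components, 15 neighbours, leidenalg 0.10.2 at resolution 1), which left out the protease genes. Clusters with 50 or more nuclei were named where the best marker list had a mean log2 fold of at least 0.8, at least 0.5 above the next list, and at least 3 markers raised 1.5 times and seen in 10% of nuclei; 52.6% of nuclei fell in named clusters. Class levels need at least 20 nuclei per library and at least 10 libraries.

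Counts were summed per library over all deposited nuclei, and over intestine-like nuclei, and tested with edgeR 4.0.16 in R 4.3.3 (quasi-likelihood, TMM, filterByExpr, Benjamini-Hochberg over all genes tested, threshold 0.05). The fit held the 26 water and ethanol libraries together; its terms were 4 intercepts (batch by generation) and the dose effects of each generation, without a replicate block. The edgeR test was tested on simulated data. DESeq2 1.42.0 and other settings were alternatives. Genes named are the 10 with the highest mean CPM, the highest of each family and class, every gene with a class mean of at least 100 CPM, and per comparison all called ones, or the 10 with the largest change among those with at least 5 CPM in 1 arm, or where none was called the one with the smallest p. The cluster 4 genes, the genes set beside the plot of ratios and asp-14, asp-13, cpr-3 and cpr-5 as ends of ranges or in P0, and nas-23, were named after their values were seen. The genes and lists were chosen with earlier results of these data known.

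Whether same-numbered libraries pair was checked by the correlation of their deviations from group means (6829 genes). In F1 every same-numbered pair of 0.05% ethanol and water correlated (0.523 to 0.773, 5 pairs), as did 0.5% ethanol and water (0.564 to 0.688, 3 pairs) and the doses (0.608 to 0.678, 3 pairs), and in F3 0.5% ethanol and water (0.208 to 0.66, 3 pairs). The other comparisons each had a pair below 0.1: 0.05% ethanol and water in F3 (lowest -0.066), the doses in F3 (lowest 0.0173), and F3 and F1 in batch 2, where the water pairs had 0.0278 and the 0.05% ethanol pairs 0.508. In batch 2, with 2 libraries in a group, the deviations mirror each other. The 2 pairs of a comparison there give the same value by construction and count as 1. What a number stands for is not given. Ranges and floors cover counting error only.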

Additional observations from a re-analysis of the deposited data

Results flagged for a closer look

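In 80 sets of 4 to 10 libraries, a summed level far from the others was looked for, and 2 were found; chance gives about 1 in 20. In water F1 the cpr genes summed to 1999 CPM in library 2 of batch 5, below the 3326 to 3505 CPM of the other 4 libraries; it is one of the shallow libraries. In unsorted P0 the try genes summed to 136 CPM in library 3 of batch 3, above the 101 CPM of each of the other 3 libraries; 40.7% of its nuclei were uterine lumen-like.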

How the results depend on the processing

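In the ethanol comparisons the count of called protease genes was 0 under each alternative, and leaving out 1 library gave 0 in each. Of the counts, 309 stayed within 1.5 times the main one and 15 moved; of single genes, 607 kept their side, 2 passed and 23 lost the threshold, and none turned its direction. With the replicate block, the call was 0 in each paired ethanol comparison, and between F3 and F1 of batch 2 it was 2 of 56 protease genes (555 of all genes); DESeq2 called 1. For batch 5 against batch 2 in F1, 16 of 21 were called at a mean of at least 20 CPM (4177 of all 6836 genes). In a fit of water libraries alone it was 1 of 33 (268 of all 11403). For batch 4 against batch 2 in F3 the counts were 1 of 21 at 20 CPM (1354 of all 6836 genes) and 8 of 39 with water libraries alone (1345 of all 12332). Without cluster 4, a setting added after seeing the data, it was 9 of 50 (1977 of all 14229). These settings test fewer genes or libraries. Leaving out 1 library gave 28 to 34 called in F1 and 14 to 17 in F3, where the main fit called 48.6% and 20% of all genes. In intestine-like nuclei, batch 5 against batch 2 gave 5 of 62 with no filter (533 of all 16800 genes). With clusters at resolution 0.5, where the class was wider, it gave 9 of 27 (1051 of all 8685). With shared barcodes kept once, a setting added after seeing the data, it gave 1 of 26 (340 of all 6619). With 1 library left out it gave 0 to 3, and batch 4 against batch 2 gave 0 to 2. The main fit in these nuclei called 5.76% and 4.71% of all genes. The cause was not tested.

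Of 51 genes with a class level, 49 had the same highest class by mean log2(CPM + 1), 51 with doublets kept and 50 with shared barcodes kept once. The 10 highest genes by CPM were the same without mitochondrial and ribosomal RNA. Depth limits the 43 genes under 5 CPM with a count most: 19 of the 74 were below the filter and could not be tested.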
